A study of Rattus norvegicus with 16 samples.

Results

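Glucocorticoid-induced regulators are genes known for transcription within hours of glucocorticoid receptor activation. Those described here are the transcription factors Klf9, Cebpd and Cebpb, the kinase Sgk1, the signalling inhibitors Dusp1, Nfkbia and Errfi1, the cell cycle inhibitor Cdkn1a, and the insulin pathway genes Igfbp1 and Irs2. Members were all probe sets whose single platform gene symbol is one of these 10 names, of 4736 genes on the array, whatever their values. There were 23 such probe sets among 8740, and 21 of them lay among the 5244 above a brightness filter that were tested. An Irs2 probe set (U89743_at) and an Errfi1 probe set (M23572_at) lay under that filter and are described without a test. The name is taken from background knowledge. In these kidneys 1 of the tested member probe sets passed in any comparison, and it was lower, not higher. Only 0% to 3.57% of all tested probe sets passed, depending on the comparison, so few calls among members do not show a lack of induction. Member values leaned upward relative to saline rats without passing, by an amount that depended on which rats and kidneys were compared. In the saline rats themselves, 19 of 23 member probe sets had less signal on the right. Probe sets of 1 gene often changed together, so the 23 are not separate observations.

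RNA was measured in both kidneys of 8 rats on 16 one-colour oligonucleotide arrays, 1 array per kidney. The right kidneys carried the label ACTH (rats 1 and 5), DEX (rats 3 and 7) or saline (rats 2, 4, 6 and 8), and all 8 left kidneys were the controls within each animal. ACTH is the pituitary hormone adrenocorticotropin, which makes the adrenal cortex release glucocorticoids. DEX is not spelled out by the labels, and neither are dose, route, duration, strain, age or sex, so it is not known whether a hormone also reached the left kidneys. The titles give 4 saline rats while the series description gives 2 rats per treatment, and the titles were followed. P-values of comparisons that use both kidneys rest on the spread of right minus left differences between rats of the same treatment. Those of left kidney comparisons rest on the spread between left kidneys. Nothing says how the animals were batched.

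Glucocorticoids act through a receptor that enters the nucleus, binds DNA and changes transcription of nearby genes. In the kidney the same receptor sits in tubule cells, where Sgk1 promotes sodium reabsorption and where the mineralocorticoid receptor shares many of its targets. Several members are also immediate early genes: Dusp1, Cebpb, Nfkbia and Errfi1 respond to growth factors, stress and injury as well as to steroids.

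Promoters of 8 members were in the RefSeq promoter table of build GRCr8 (10 promoters, each running from 250 bases before to 50 bases after a gene start). They were searched on both strands. The full glucocorticoid response element, AGAACA and TGTTCT spaced by any 3 bases, was in none of them and in 0.0149% of all 33469 promoters. One arm of it, TGTTCT, was also in none of the 10, against 20.7% of all promoters, and the C/EBP core TTGCGCAA was in none, against 0.170%. The cAMP response element TGACGTCA was in the Dusp1 promoter, at positions −124 to −117 from the gene start, and in 1.83% of all promoters. An NF-kB motif was in the Nfkbia promoter, at −31 to −22 and read on the opposite strand, and in 4.18% of all promoters. No match says only that these letters are not in this window. The 200 bases before each of these gene starts are shown because they are the member promoters with a match, the Dusp1 run from chr10:17184653-17184852 on the plus strand and the Nfkbia run from chr6:78597073-78597272 on the minus strand, with the motif in capitals.
Dusp1: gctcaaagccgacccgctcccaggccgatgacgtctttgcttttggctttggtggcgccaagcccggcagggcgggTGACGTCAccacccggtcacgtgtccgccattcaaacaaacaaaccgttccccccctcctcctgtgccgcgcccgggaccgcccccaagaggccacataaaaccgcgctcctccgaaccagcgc
Nfkbia: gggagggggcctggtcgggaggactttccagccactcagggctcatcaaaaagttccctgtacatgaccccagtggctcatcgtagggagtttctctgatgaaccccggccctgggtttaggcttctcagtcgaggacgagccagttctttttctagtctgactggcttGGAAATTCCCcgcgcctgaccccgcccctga

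Values are the deposited signals on a linear scale, and array numbers, not depth, limit the precision. Array medians lay between 76.0 and 82.4, and pairs of arrays correlated at 0.951 to 0.994. By overall signal the arrays split into those of rats 1 to 4 and those of rats 5 to 8, a division without a label, each with 1 ACTH rat, 1 DEX rat and 2 saline rats. Bright kidney markers had lowest signals of 696 for Lrp2 and 4343 for Slc34a1 (both proximal tubule). For Umod (thick ascending limb) the lowest was 1756, and for Aqp2 (collecting duct) 869. Other kidney markers were dimmer, with lowest signals of 53.0 for Slc12a1 (thick ascending limb) and 80.0 for Slc13a1 (proximal tubule). Scnn1g (distal and collecting duct) had a lowest signal of 108. Of 8 listed adrenal cortex markers 5 were on the array, with Star and Cyp11b2 at or below 48.5 and 49.6, Cyp11a1 and Cyp17a1 at 60.7 to 120.0 and Cyp21a1 at 98.9 to 141. Their sums were 334 to 378 in the ACTH right kidneys, 319 to 394 in the DEX right kidneys, 313 to 416 in the saline right kidneys and 354 to 467 in the left kidneys. Fat markers varied: summed over 10 of 11 listed genes on the array they reached 1945 and 12573 in the ACTH right kidneys, 1201 to 1529 in the DEX right kidneys, 1174 to 1815 in the saline right kidneys and 1154 to 3995 in the left kidneys. In bulk tissue, fewer cells of a type and less RNA per cell cannot be told apart. A hormone effect below is how far the right-left difference of hormone rats exceeds the one in saline rats, on a scale of log2(value + 16), fitted by limma with a term for each rat and adjusted over the 5244 tested probe sets of that comparison.

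Klf9 was lower in the ACTH-treated right kidneys than in the left kidneys of the same rats, and it was the only member gene to pass the test in any of 8 comparisons. Klf9 is a zinc finger transcription factor that glucocorticoids and thyroid hormone induce in many tissues and that takes part in circadian output. Its probe set D12769_at gave 183 and 191 in the ACTH right kidneys, against 362 and 405 in the left kidneys of those rats. In the DEX rats it gave 403 and 405 on the right, against 310.2 and 413 on the left. The saline rats 2, 4, 6 and 8 had 291, 274, 267 and 238 on the right, against 277, 224, 414 and 351 on the left. In this probe set both ACTH right kidneys thus lay below all 4 saline right kidneys, and both DEX right kidneys lay above them. The brighter Klf9 probe set D12769_g_at overlapped, with 659 and 317 in the ACTH right kidneys and 863 and 595 in the DEX right kidneys. Its right kidneys in saline rats 2, 4, 6 and 8 had 999, 669, 419 and 346.

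Within the ACTH rats the right minus left change of D12769_at was −0.98 ± 0.20 (SE; −0.93 and −1.03 in rats 1 and 5), a 1.97-fold lower signal on the right (limma, adjusted p = 0.0219). In that comparison 3.57% of tested probe sets passed, and 1 of the 21 tested member probe sets did. At an unadjusted limma p under 0.05 there were 4 member probe sets, among 966 in all (18.4% of those tested). The second Klf9 probe set, D12769_g_at, had a like value without passing, at −0.77 ± 0.21 (adjusted p = 0.07 in limma), with 659 and 317 on the right, against 1020.2 and 619 on the left. The call rested on both ACTH rats: leaving out rat 1 gave an adjusted p of 0.0619 in limma, and leaving out rat 5 gave 0.127. Without a rat term it was 0.172, with array weights 0.106, and with the mean fat marker level as a covariate 0.0584, at a change of −1.19.

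Relative to the saline rats, Klf9 did not pass. Its ACTH effect was −0.78 ± 0.25 for D12769_at and −0.58 ± 0.26 for D12769_g_at (limma, adjusted p = 0.269 and 0.505), and −0.48 and −0.28 when the right kidneys alone were compared. Saline rats 6 and 8 also had less Klf9 on the right, with changes of −0.60 and −0.53, while rats 2 and 4 had 0.07 and 0.27. The DEX effect was 0.37 ± 0.25 and 0.43 ± 0.26 for the same probe sets. The ACTH effect minus the DEX effect came to −1.14 ± 0.28 and −1.01 ± 0.30 (limma, adjusted p = 0.11 and 0.205), and both passed, at 0.0292 and 0.037, when the right kidneys of rats 5 to 8 had a term of their own. Thick ascending limb markers (4 of 5 on the array) had the same sign as Klf9 D12769_at in every rat except DEX rat 7: their mean change was −0.49 and −0.25 in the ACTH rats, 0.40 and 0.18 in the DEX rats, and 0.13, 0.12, −0.15 and −0.13 in the saline rats. Egf is 1 of these 4 genes, and the other 3 also had less signal on the right in both ACTH rats, with −0.42 and −0.08 for Umod, −0.31 and −0.16 for Slc12a1 and −0.33 and −0.06 for Kcnj1. The list's sums were 3820 to 3857 in the ACTH right kidneys, 4119 to 5519 in the DEX right kidneys, 3681 to 5821 in the saline right kidneys and 3628 to 5826 in the left kidneys, and their part in the Klf9 change was not tested. Smooth muscle markers (5 of 5 on the array) had mean changes of 0.27 and 0.48 in the ACTH rats, against −0.11 to 0.03 in the DEX and saline rats. Their sums were 1177 to 1239 in the ACTH right kidneys, 950.1 to 1028 in the DEX right kidneys, 793 to 905 in the saline right kidneys and 781 to 1081 in the left kidneys, and their part in the ACTH changes was not tested either.

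**Figure D1:**
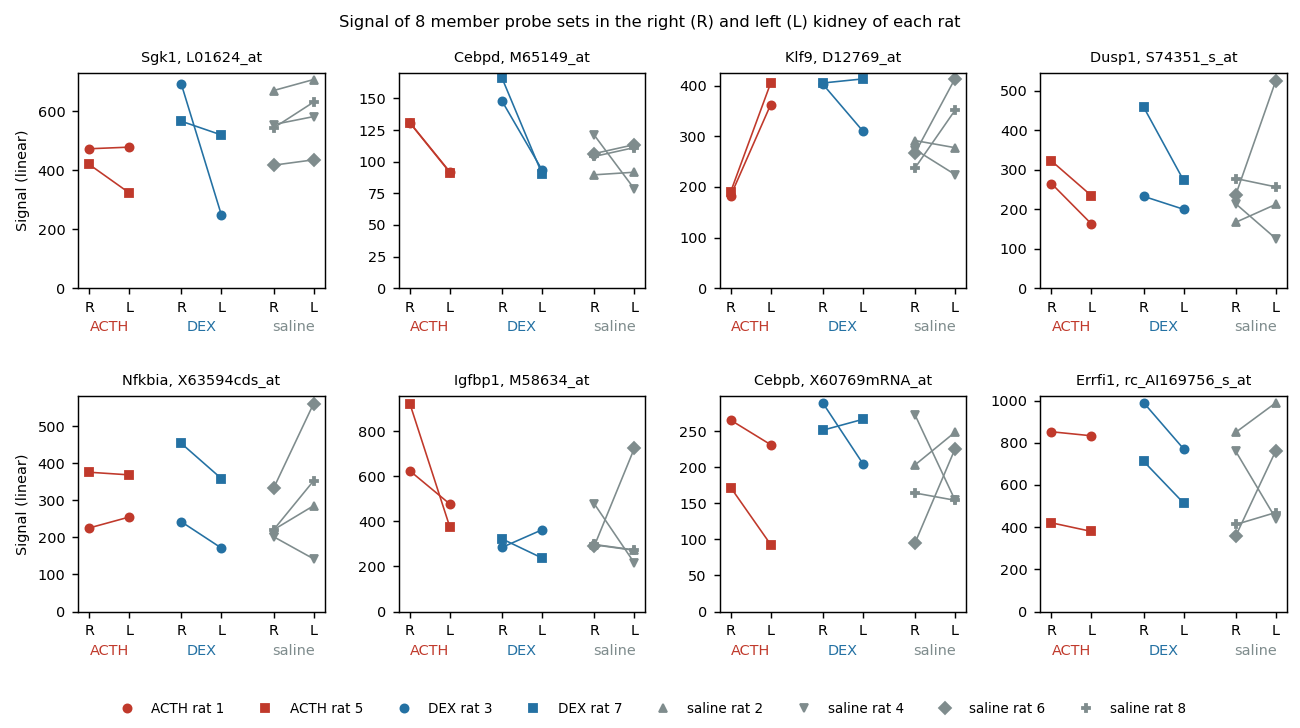
Signal (linear axes from 0) of 8 member probe sets in the right (R) and left (L) kidney of each rat, with the kidneys of 1 rat joined by a line and colours for ACTH, DEX and saline rats. Klf9 was lower on the right in both ACTH rats, at 183 and 191 against 362 and 405, and Cebpd M65149_at was higher on the right in all 4 hormone rats, while the saline rats' lines ran both ways for every probe set drawn except Sgk1 L01624_at.

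Cebpd had more signal on the right in both ACTH rats and both DEX rats, in 2 of its 3 probe sets, but no Cebpd probe set passed the test. Cebpd is a C/EBP family transcription factor of the acute phase response and of early fat cell differentiation. M65149_at gave 131 and 131 in the ACTH right kidneys and 148 and 166 in the DEX right kidneys, against 89.6, 121, 106 and 104 in the saline right kidneys. Its left kidneys had 91.9 and 91.4 in the ACTH rats, 93.4 and 90.3 in the DEX rats and 91.7, 78.5, 113 and 111 in the saline rats. All 4 hormone-treated right kidneys therefore exceeded all 4 saline right kidneys, while every hormone rat's left kidney lay within the range of the saline left kidneys. In changes, M65149_at overlapped: saline rat 4, at 0.53, exceeded both ACTH rats, at 0.44 and 0.45, and lay below both DEX rats, at 0.58 and 0.77, and the other saline rats had −0.08 to −0.03.

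The probe set rc_AI045030_s_at gave the same order among right kidneys, with 126 and 127 in the ACTH right kidneys and 137 and 165 in the DEX right kidneys, against 78.2, 124, 92.7 and 110.1 in the saline right kidneys. Its left kidneys differed from those of M65149_at: they gave 75.9 and 86.0 in the ACTH rats and 89.6 and 87.5 in the DEX rats, all below the 92.4, 91.4, 103 and 117 of the saline rats. Its right minus left change was 0.63 and 0.49 in the ACTH rats and 0.53 and 0.81 in the DEX rats, against −0.20, 0.38, −0.14 and −0.07 in the saline rats. Here saline rat 4 lay below all 4 hormone rats. The ACTH effect was 0.57 ± 0.18 (limma, adjusted p = 0.267) and the DEX effect 0.68 ± 0.18 (adjusted p = 0.999), and those of M65149_at were 0.36 ± 0.18 and 0.59 ± 0.18. In right kidneys alone the ACTH effect of rc_AI045030_s_at was 0.30 (limma, adjusted p = 0.999) and its DEX effect 0.52. Within the ACTH rats the right minus left change of rc_AI045030_s_at was 0.56 ± 0.15 (limma, adjusted p = 0.0576), which passed without saline rat 4 (0.0343) and without saline rats 4 and 6 (0.0445). The mean changes of fat markers were 1.54 and 0.40 in the ACTH rats and −0.96 and −0.94 in the DEX rats. With the mean fat marker level as a covariate the ACTH effect of rc_AI045030_s_at was 0.55 (limma, adjusted p = 0.395) and its DEX effect 0.69. The part of fat markers in the Cebpd changes was not tested.

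The third Cebpd probe set, rc_AA946292_at, shared the higher signal on the right in both ACTH rats but not in both DEX rats. Its changes were 0.17 and 0.23 in the ACTH rats and −0.19 and 0.03 in the DEX rats, against −0.10, −0.04, 0.05 and 0.15 in the saline rats. Both ACTH changes lay above all 4 saline changes. Its ACTH right kidneys, at 133 and 127, overlapped the saline right kidneys, at 120, 140, 118 and 121. Over the 8 rats its changes correlated at −0.11 and 0.11 with those of M65149_at and rc_AI045030_s_at, which correlated at 0.96 with each other. It was the brightest Cebpd probe set, at a mean of 122 against 110 and 106 over all arrays, so rules that take 1 probe set per gene use it.

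Cebpb, the related factor that drives acute phase and gluconeogenic genes in liver, had such a separation of right kidneys only for DEX and only in its dimmer probe set. X60769mRNA_at gave 265 and 172 in the ACTH right kidneys and 289 and 251 in the DEX right kidneys, against 203, 272, 95.3 and 164 in the saline right kidneys. The groups overlapped, and the saline rats alone spanned changes from −1.12 (rat 6) to 0.76 (rat 4). Its ACTH effect was 0.62 ± 0.39 and its DEX effect 0.33 ± 0.39 (limma, adjusted p = 0.682 and 0.999). The other Cebpb probe set, S77528cds_s_at, had 0.45 and 0.28 for ACTH and DEX, and its DEX right kidneys, at 167 and 222, lay above the saline right kidneys, at 85.7, 141, 126 and 158.

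Sgk1, the serum- and glucocorticoid-induced kinase that keeps the epithelial sodium channel at the tubule surface, differed mainly in 1 DEX rat. Its only probe set, L01624_at, gave 472 and 419 in the ACTH right kidneys and 690.5 and 566 in the DEX right kidneys, against 669.6, 554, 417 and 543 in the saline right kidneys. On the left it gave 478 and 323 in the ACTH rats, 249 and 519 in the DEX rats and 707, 581, 435 and 630.2 in the saline rats. The right kidneys of DEX rats 3 and 7 lay only in part above the saline right kidneys, and the left kidney of rat 3 had the lowest Sgk1 signal of all 16 arrays.

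The right minus left change of Sgk1 was −0.02 and 0.36 in the ACTH rats and 1.42 and 0.12 in the DEX rats, against −0.08, −0.07, −0.06 and −0.21 in the saline rats. Both DEX rats and both ACTH rats exceeded all 4 saline rats. The DEX effect was 0.87 ± 0.28, or 1.83-fold (limma, adjusted p = 0.999), and the ACTH effect 0.27 ± 0.28 (adjusted p = 0.86). The size of the DEX effect depended on rat 3. It was 1.49 in rats 1 to 4 and 0.25 in rats 5 to 8, 0.22 when rat 3 was left out and 0.21 in right kidneys alone. Sgk1 was also the steadiest of the tested member probe sets between the kidneys of a saline rat, with an SD of 0.07 over 4 saline changes, at the 5.64th percentile of all tested probe sets.

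**Figure D2:**
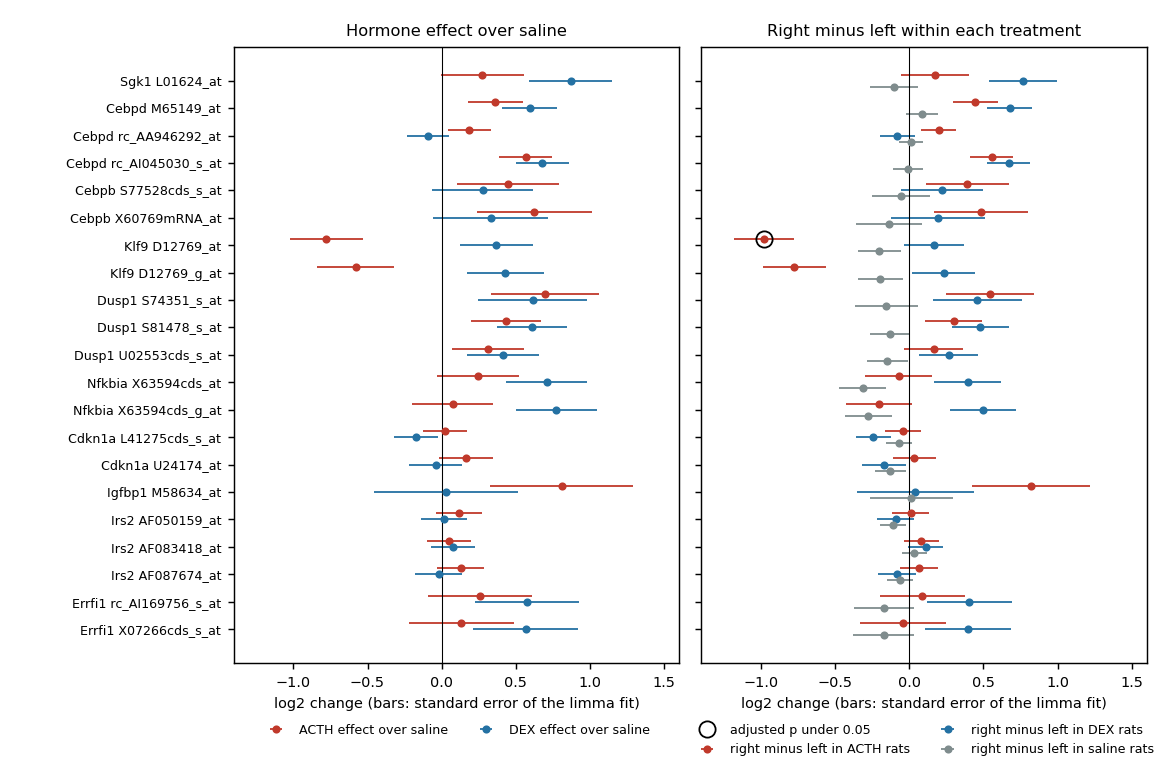
Log2 changes of the 21 tested member probe sets with the standard error of the limma fit as bars, ACTH (red) and DEX (blue) effects over saline on the left, and right minus left changes in ACTH, DEX and saline (grey) rats on the right. A black ring marks an adjusted p under 0.05, which only Klf9 D12769_at in the ACTH rats has, at −0.98.

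Nfkbia and Dusp1, inhibitors of inflammatory signalling, had positive DEX effects that did not pass. Nfkbia encodes the protein that holds NF-kB in the cytoplasm. X63594cds_at gave 225 and 376 in the ACTH right kidneys and 242 and 453 in the DEX right kidneys, against 220.4, 202, 332 and 220.4 in the saline right kidneys. Its left kidneys spanned more than its right ones, from 142 in saline rat 4 to 560.2 in saline rat 6. DEX effects were 0.71 ± 0.28 for X63594cds_at and 0.77 ± 0.27 for X63594cds_g_at (limma, adjusted p = 0.999 for both). Saline rats 2, 6 and 8 had less Nfkbia on the right, with X63594cds_at changes of −0.35, 0.46, −0.73 and −0.64 in rats 2, 4, 6 and 8, and their mean of −0.31 is subtracted in the DEX effect.

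Dusp1 encodes the phosphatase that switches off p38 and JNK kinases. S74351_s_at gave 265 and 322 in the ACTH right kidneys and 233 and 458 in the DEX right kidneys, against 167, 214, 237 and 278 in the saline right kidneys. Both ACTH rats and both DEX rats had more Dusp1 on the right in this probe set, by 0.65 and 0.43 in the ACTH rats and 0.20 and 0.71 in the DEX rats, but so did saline rats 4 and 8, at 0.69 and 0.11. The ACTH effects of its 3 probe sets ran from 0.31 to 0.70, and the DEX effects from 0.41 to 0.61. None passed, with a lowest adjusted p of 0.584 in limma for ACTH.

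Errfi1, an inhibitor of the epidermal growth factor receptor, was higher in both DEX right kidneys than in every other right kidney in its brightest probe set only. Its probe set X07266cds_s_at gave 1039.7 and 781 in the ACTH right kidneys and 1329 and 1666 in the DEX right kidneys, against 1177, 977, 916 and 1165 in the saline right kidneys. Both DEX right kidneys lay above all 4 saline right kidneys in this probe set, yet the left kidney of saline rat 6 was higher still, at 1863. The groups overlapped in rc_AI169756_s_at, at 990 and 712 in the DEX right kidneys and 852 and 421 in the ACTH right kidneys. Its saline right kidneys had 850, 759, 359 and 413. The DEX effects of X07266cds_s_at and rc_AI169756_s_at were 0.57 ± 0.35 and 0.58 ± 0.35, and the ACTH effects 0.13 ± 0.35 and 0.26 ± 0.35 (limma, lowest adjusted p = 0.913). The dim probe set M23572_at stayed at or under 79.5.

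Igfbp1, a secreted binding protein of insulin-like growth factors that glucocorticoids raise and insulin lowers in liver, was highest in the ACTH right kidneys. M58634_at gave 624 and 921 in the ACTH right kidneys and 285 and 322 in the DEX right kidneys, against 296, 478, 291 and 297 in the saline right kidneys. The left kidneys had 477 and 374 in the ACTH rats, 363 and 237 in the DEX rats and 271, 216, 724 and 273 in the saline rats. Both ACTH right kidneys lay above all saline right kidneys, but the left kidney of saline rat 6 exceeded that of ACTH rat 1 on the right. The ACTH effect was 0.81 ± 0.48 and the DEX effect 0.03 ± 0.48 (limma, adjusted p = 0.667 and 0.999).

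Irs2, the insulin receptor substrate of liver and kidney, and Cdkn1a, the p21 inhibitor of cyclin-dependent kinases, had small hormone effects. The ACTH effects of the 3 tested Irs2 probe sets lay between 0.05 and 0.13, and the DEX effects between −0.02 and 0.07. Cdkn1a U24174_at gave 168 and 133 in the ACTH right kidneys and 152 and 139 in the DEX right kidneys, against 171, 152, 148 and 128 in the saline right kidneys. These groups overlapped fully. Its ACTH and DEX effects were 0.16 ± 0.18 and −0.04 ± 0.18, and those of L41275cds_s_at were 0.02 ± 0.15 and −0.17 ± 0.15 (limma, lowest adjusted p = 0.882). The dim Irs2 probe set U89743_at stayed between 17.5 and 25.9.

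Over the 23 member probe sets, values leaned upward relative to saline without passing the test. The ACTH effect was positive in 21 and negative in 2, with a median of 0.19, and the DEX effect was positive in 19 and negative in 4, with a median of 0.37, against medians near 0 over all 8740 probe sets. No member passed in either comparison, where 0.496% and 0% of tested probe sets were called (limma). At an unadjusted limma p under 0.05 there were 3 of 21 tested member probe sets for ACTH, among 495 in all (9.44% of those tested). They were Cebpd rc_AI045030_s_at, which was higher, and both Klf9 probe sets, which were lower. For DEX there were 6 of 21, among 154 in all (2.94%), all higher and from Sgk1, Cebpd, Dusp1 and Nfkbia. Both effects share the saline rats, whose own right minus left change was negative in 19 of 23 member probe sets. The median change was 0.08 in the ACTH rats and 0.22 in the DEX rats, against −0.13 in the saline rats. The DEX median was 0.23 without saline rat 6, 0.24 without DEX rat 3 and 0.56 without saline rat 4, and it was 0.02 in rats 1 to 4 alone and 0.63 in rats 5 to 8 alone. The ACTH median was 0.06 in right kidneys alone, 0.29 without ACTH rat 1 and 0.30 without saline rat 4. With the immediate early marker level as a covariate the DEX median was 0.16.

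Against each other, the hormones gave a median of −0.10 for ACTH minus DEX, with 10 member probe sets positive and 13 negative, and 0.02 without DEX rat 7. None passed in limma, where 0.572% of tested probe sets did, and 3 member probe sets had an unadjusted p under 0.05, among 639 in all. Right minus left comparisons within the DEX rats and within the saline rats called no probe set (0% of 5244 in each), with 5 and 0 member probe sets at an unadjusted p under 0.05, among 310 and 196. The left kidneys of ACTH rats and of DEX rats gave no call against those of saline rats (0% of tested probe sets in each), with 0 member probe sets at an unadjusted p under 0.05 in both, among 21 and 46.

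In some members the right kidneys of a hormone did not overlap those of saline. Of the 21 tested member probe sets, 4 had both ACTH right kidneys on one side of all 4 saline right kidneys, 3 higher and 1 lower, where 11.0% of all tested probe sets did. Higher were Igfbp1 and 2 Cebpd probe sets, and lower was Klf9 D12769_at. For the DEX right kidneys the count was 5, all higher (2 Cebpd probe sets, Cebpb S77528cds_s_at, Klf9 D12769_at and Errfi1 X07266cds_s_at), where 6.67% did. For right minus left changes the counts were 4 in the ACTH rats, where 15.7% did, and 3 in the DEX rats, where 12.4% did.

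Cebpb, Dusp1, Igfbp1, Errfi1, Nfkbia and Klf9 also differed widely between the kidneys of saline rats. Over the 4 saline changes, 11 of the 21 tested member probe sets had an SD above the 95th percentile of all tested probe sets, and 6 lay above the 99th. The SD was 0.97 for Igfbp1, 0.75 for Dusp1 S74351_s_at, 0.78 for Cebpb X60769mRNA_at and 0.74 for Errfi1 rc_AI169756_s_at, against a median of 0.17 over all tested probe sets. Klf9 had 0.43 and 0.46. Lower values were those of Cebpd, at 0.30, 0.26 and 0.11, the tested Irs2 probe sets, at 0.11 to 0.18, and Cdkn1a, at 0.17 and 0.25.

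**Figure D3:**
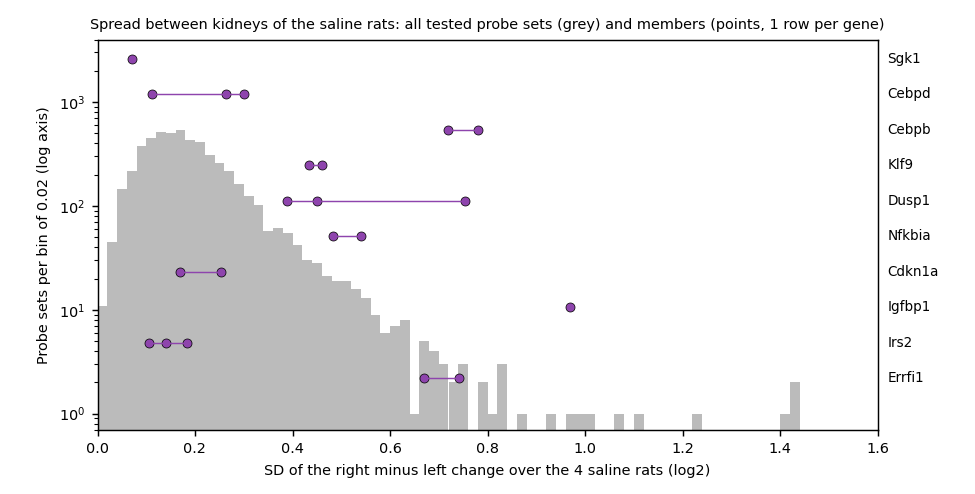
SD of the right minus left change over the 4 saline rats for all 5244 tested probe sets (grey histogram, log axis of counts) and for the tested member probe sets (points, 1 row per gene, whose height carries no value). Igfbp1 lies farthest right at 0.97, Cebpb, Errfi1 and 1 Dusp1 probe set lie at 0.67 to 0.78, and Sgk1 lies at 0.07.

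Among the saline rats, members lay at opposite ends in rats 4 and 6. In rat 6 the median right minus left change of the 23 member probe sets was −0.53, and 13 lay below −0.5. In rat 4 it was 0.30, and 7 lay above 0.5. Rats 2 and 8 had medians of −0.14 and −0.10. The left kidney of rat 6 had the highest signal of all 8 left kidneys in 10 of the 23 probe sets, including Dusp1 S74351_s_at at 525 and Nfkbia X63594cds_at at 560.2, and the left kidney of rat 4 had the lowest in 11, including the same probe sets at 126 and 142. Immediate early markers (8 of 11 on the array) had changes of the same sign in those rats, with a mean change of −0.54 in rat 6 and 0.29 in rat 4. In the ACTH rats that mean was −0.15 and 0.33, in the DEX rats −0.17 and 0.49, and in saline rats 2 and 8 −0.16 and −0.26. The summed immediate early signal was 1594 and 2823 in the ACTH right kidneys, 1220 and 2598 in the DEX right kidneys, 1230.2 to 2169 in the saline right kidneys and 1153 to 3913 in the left kidneys, and its part in the members' changes was not tested.

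**Figure D4:**
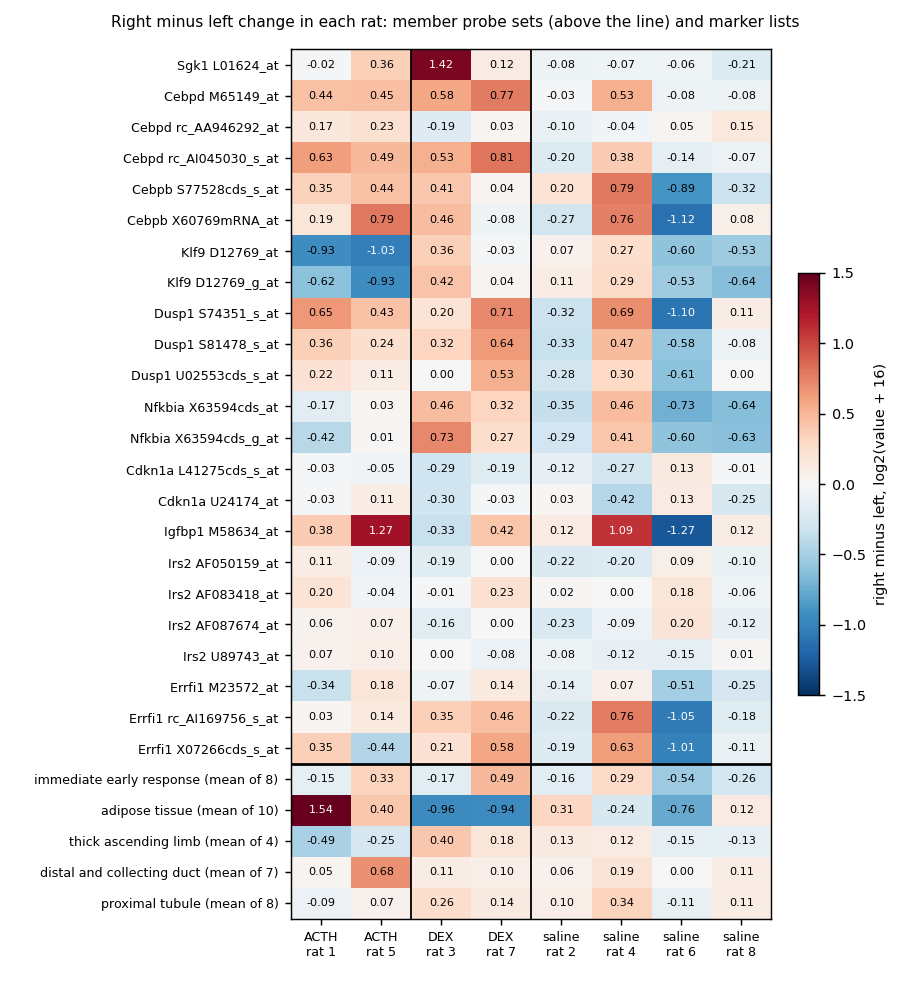
Right minus left change on the log2(value + 16) scale of all 23 member probe sets (above the line) and of the mean of 5 marker lists (below it) in each rat, ACTH and DEX rats left of saline rats. Blue cells in saline rat 6 and red cells in saline rat 4 fall in the same rows (Cebpb, Dusp1, Nfkbia, Igfbp1, Errfi1), and the Klf9 rows are blue in both ACTH rats.

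Among the 45 pairs of member genes, taking the brightest probe set of each, 1 pair passed after adjustment over the pairs. Changes of Cebpd rc_AA946292_at and Klf9 D12769_g_at ran opposite over the 8 rats, with Pearson's r = −0.93 (exact permutation test, two-sided, p = 0.00057, adjusted p = 0.0257) and Spearman's rho = −0.95 (exact permutation p = 0.00114, adjusted p = 0.0513). Without rats 3 and 5, which lay farthest from the median, r was −0.86. The permutations took all 8 rats as exchangeable although they differed in treatment, and the part of treatment in these correlations was not tested. The relation was not shared by the other Cebpd probe sets, which correlated with the same Klf9 probe set at 0.37 (M65149_at) and 0.14 (rc_AI045030_s_at). Dusp1 and Errfi1 had r = 0.87 (exact permutation adjusted p = 0.119) and 0.61 without rats 6 and 7, and Cebpb and Igfbp1 had r = 0.84 (adjusted p = 0.154) and 0.40 without rats 5 and 6. Each cluster of arrays held 4 rats, too few for a value within it.

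Genes most like Sgk1 in their 8 right minus left changes, among 3183 genes, were Kyat1 (Pearson's r = 0.89), Prdx6 (0.85) and Prps1 (0.85). Those most like Cebpd rc_AA946292_at were Gabrd (0.98), Kifc3 (0.95) and Cacna1g (0.95). These are descriptions over 8 rats, some of which share a treatment.

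Other genes that glucocorticoids are known to regulate gave a mixed picture. Of 40 listed, 20 were on the array and 16 tested. Their ACTH effect was positive in 15 and negative in 5, with a median of 0.21, and 1 passed, Ndrg2 (1.13 ± 0.20, limma, adjusted p = 0.033). Their DEX effect was positive in 14 and negative in 6, with a median of 0.05, and none passed. Right minus left within the ACTH rats, 4 passed higher and 1 lower, where 3.57% of all tested probe sets passed. Ndrg2 rose by 1.14 ± 0.16 (limma, adjusted p = 0.00279). Sult1a1 rose by 1.38 ± 0.25 (limma, adjusted p = 0.0111), with 1.95 and 0.82 in rats 1 and 5, against −0.74 to 0.34 in the saline rats. Agt, the angiotensin precursor, rose by 0.93 ± 0.21 (limma, adjusted p = 0.0336), with 1.51 and 0.35 in rats 1 and 5, against 0.06, 0.37, 0.32 and 0.11 in the saline rats. ACTH rat 5 thus lay within the saline range for Agt. The alanine transaminase Gpt rose by 0.61 ± 0.15 (limma, adjusted p = 0.0482), with 0.90 and 0.32 in rats 1 and 5, against −0.17 to −0.02 in the saline rats. Fat markers had 1.54 and 0.40 in those rats, and their part in the rises of these genes was not tested. Per2, a clock gene, fell by 0.84 ± 0.12 (limma, adjusted p = 0.0032) in the ACTH rats, in which Klf9 also fell. In saline rats 2, 4, 6 and 8 Per2 had −0.28, −0.08, 0.07 and −0.15, where Klf9 D12769_at had 0.07, 0.27, −0.60 and −0.53. The Per2 ACTH effect over saline did not pass, at −0.73 ± 0.15 (limma, adjusted p = 0.0613). Its ACTH effect minus DEX effect was −1.16 ± 0.18 (adjusted p = 0.0167).

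Partners of the members (paralogues, receptors, kinases and targets) had medians near 0 for both hormones. Of 58 listed, 44 were on the array and 37 tested. The median was −0.05 for the ACTH effect (19 positive, 25 negative) and close to 0 for the DEX effect (22 positive, 22 negative), and none passed in either. Within the ACTH rats, Igfbp6, a binding protein with preference for insulin-like growth factor 2, rose by 0.56 ± 0.13 (limma, adjusted p = 0.0336), with 0.33 and 0.79 in rats 1 and 5, against −0.13 to −0.0038 in the saline rats. The smooth muscle markers had 0.27 and 0.48 in those ACTH rats, and their part in the Igfbp6 rise was not tested. Egf, the growth factor made in the thick ascending limb and distal tubule, fell by 0.78 ± 0.17 (limma, adjusted p = 0.028), with −0.90 and −0.67, against −0.23 to 0.26 in the saline rats. It is itself in the thick ascending limb list, whose mean was −0.49 and −0.25 in the ACTH rats. Scnn1a, the sodium channel subunit on which Sgk1 acts, had 0.50 ± 0.15 (limma, adjusted p = 0.103), with 0.18 and 0.81, against −0.06 to 0.20 in the saline rats. Distal tubule and collecting duct markers (7 of 8 on the array) had mean changes of 0.05 and 0.68 in the ACTH rats, against −0.0014 to 0.19 in the DEX and saline rats, with sums of 8269.8 to 8337 in the ACTH right kidneys, 5518 to 6313 in the DEX right kidneys, 5208 to 7989 in the saline right kidneys and 4858 to 7544 in the left kidneys, and their part in the Scnn1a value was not tested.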

How the data were processed

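The authors deposited 1 signal intensity per probe set and array, on a linear scale as the values show (5.18 to 12664). How the authors scaled or normalized them is not given in the sources used here. Per the labels' protocols, RNA was extracted with Tri-Reagent, cleaned on spin columns and labelled with biotin. No deposited column was left unused.

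The 59 control probe sets were removed, 8740 remained, and 7006 of them had 1 gene symbol. Values as deposited were converted to log2(value + 16) without further normalization, and the 40% with the lowest mean log2 value were left out, so that 5244 were tested. The lowest mean signal tested was 60.5. limma 3.58.1 in R 4.3.3 fitted a term per rat, a right kidney term and ACTH and DEX terms in the right kidney, with a variance trend (5 residual degrees of freedom, prior 7.34); left kidneys were compared in a fit of their own. Tests were two-sided, adjusted by Benjamini and Hochberg's method, at a threshold of 0.05. The fit was tested on simulated data. Left and right kidneys carry the same rat number in the titles, and their deviations correlated at 0.55 to 0.71 in all 8 rats.

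Members, gene lists and tests were chosen with earlier results of these data known. All member probe sets are described. A gene is represented by its brightest probe set where 1 is needed. The 3 genes most like Sgk1 and Cebpd are those with the highest correlation of changes, and list genes were named by the smallest p. Alternatives covered pseudocount, filter, normalization, weights, rat term, covariates, array clusters and leaving out each rat. Promoters come from RefSeq, and no promoter of Cebpd or Irs2 is shown.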

Additional observations from a re-analysis of the deposited data

Results flagged for a closer look

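Of 69 groups of member values checked for a sample standing apart (8 left kidneys, 4 saline right kidneys and 4 saline changes for each of 23 probe sets), 5 had one, where chance gives about 1 in 20 groups, or 3.45. The Sgk1 change in saline rat 8 was −0.21, against −0.08 to −0.06 in the other saline rats. The change of Cebpd M65149_at in saline rat 4 was 0.53, against −0.08 to −0.03 in the others. The signal of Cebpd rc_AA946292_at in the right kidney of saline rat 4 was 140.1, against 118 to 121 in the others. The signal of Igfbp1 in the same kidney was 478, against 291 to 297 in the others. The signal of Dusp1 U02553cds_s_at in the left kidney of saline rat 6 was 456, against 208 to 300.4 in the other left kidneys.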

How the results depend on the processing

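The count of member probe sets called stayed at 0 for the ACTH effect, the DEX effect, right minus left in DEX and in saline rats, and both left kidney comparisons under all alternatives run. For ACTH minus DEX it was 2 (both Klf9) with a right kidney term for rats 5 to 8. For right minus left in ACTH rats, where it was 1, it was 2 after quantile normalization, 0 with array weights, 0 with no replicate block (Klf9 D12769_at at an adjusted p of 0.172), 0 with the fat marker covariate, 0 to 2 leaving out each rat, and 2 without saline rats 4 and 6. The median DEX effect of the members was 0.0225 in rats 1 to 4 alone. Counts over all probe sets moved by over 1.5 times as follows. The ACTH effect had 26, but 12 after quantile normalization, 9 with array weights, 0 with no replicate block, 14 with the immediate early covariate, 0 in right kidneys only, 0 without saline rats 4 and 6 and 9 to 114 leaving out each rat. ACTH minus DEX had 30, but 17 with array weights, 0 with no replicate block and in right kidneys only, 74 with the right kidney term, 12 without saline rats 4 and 6 and 2 to 100 leaving out each rat. Right minus left in ACTH rats had 187, but 65 with array weights, 4 with no replicate block and 119 to 272 leaving out each rat. The 5 comparisons with a count of 0 had at most 4 under any alternative. The cause of these moves was not tested. The filter on mean signal and the fit without saline rats 4 and 6 were chosen after seeing the data, and the filter changed no count by over 1.5 times. Rats 1 to 4 alone and rats 5 to 8 alone leave too few degrees of freedom and are given as values with no test, decided after seeing those fits. With 2 rats per hormone and a median saline SD of 0.17, precision is limited by the number of arrays.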
